A study of Homo sapiens with 6 samples.

Results

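KHM-5M cells treated with sodium selenite (SS) together with N-acetylcysteine (NAC) were compared with control cells by RNA-seq. KHM-5M is an established line of anaplastic thyroid cancer, a fast-growing tumor type that has lost most thyroid functions. The comparison used the 4 libraries that the labels place in the control and SS+NAC groups, out of 6 libraries in the series, with 2 biological replicates per group. The other 2 libraries came from cells treated with SS alone and entered the same statistical fit. All cells were grown in RPMI-1640 with 10% fetal bovine serum, and the control cells received phosphate-buffered saline. The labels name no exposure time and no dose with a unit, although the titles of the control and SS libraries differ by a number without a unit. No library of cells given NAC alone was analysed here, so that effects of NAC itself and of SS in the presence of NAC cannot be told apart. SS+NAC and control were compared to see what remained of the transcriptional response to SS when an antioxidant was present.

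Selenite is a selenium salt that cells reduce with glutathione and thioredoxin, a reaction that generates reactive oxygen species (ROS). NAC is a thiol compound that cells convert to cysteine, the limiting building block of glutathione, and it is widely used as an antioxidant. Cells meet oxidative stress largely through NRF2, a transcription factor that induces genes for glutathione synthesis and thioredoxin reduction, and they meet amino acid or protein-folding stress through ATF4, which induces genes for amino acid uptake and synthesis. Both factors act on SLC7A11, the transporter subunit that brings cystine, the oxidized form of cysteine, into the cell.

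Control replicates 1 and 2 held 17645545 and 22016655 expected counts and SS+NAC replicates 1 and 2 held 23682740 and 22617180, and between 16086 and 16478 genes had a count in each of the 6 libraries. Levels are given as CPM, each count relative to the library total and scaled by TMM factors (normalization by a trimmed mean of log ratios). In bulk RNA, fewer cells of a kind and less RNA per cell cannot be told apart. The replicates of each group differed by more than sampling noise, with a chi-square per degree of freedom of 3.1 for control and 12.2 for SS+NAC. Per gene, log2 values of replicates differed by 0.314 (root mean square) within control and 0.321 within SS+NAC, against 0.359 to 0.411 between a control and an SS+NAC library. PAX8, a transcription factor of thyroid cells, had 275 and 263 CPM in control and 262 and 253 CPM in SS+NAC, whereas TG, the thyroid hormone precursor, had 1.11 and 1.13 CPM and 0.952 and 0.955 CPM. The summed thyroid markers were at 294 to 305 CPM in control and 283 to 291 CPM in SS+NAC, the epithelial markers at 1766 to 1847 and 1377 to 1748, with the cadherin CDH1 under 1 CPM, and the mesenchymal markers at 10369 to 10801 and 11716 to 12293. Fibroblast markers summed to 647 to 660 and 709 to 809 CPM, nearly all of it COL1A1, with COL1A2, COL3A1 and DCN at or near 0. Endothelial markers summed to 2.26 to 2.78 and 2.58 to 2.77 CPM. The median log2 fold changes of these lists were -0.11 (thyroid), -0.20 (epithelial), 0.00 (mesenchymal), 0.10 (fibroblast), 0.32 (endothelial) and 0.24 (blood and immune), and edgeR called 0 members of any of the 6 (1 member each of the epithelial, mesenchymal, fibroblast and blood lists had an unadjusted p under 0.05). Single libraries moved these medians. When each was left out, they ranged from -0.21 to 0.21 (fibroblast), -0.03 to 0.37 (blood and immune), -0.43 to -0.04 (epithelial), -0.13 to -0.04 (thyroid), 0.17 to 0.45 (endothelial) and 0.00 to 0.07 (mesenchymal). Apart from the lowest mesenchymal value, these extremes came from the fits without SS+NAC replicate 1 or 2 or control replicate 1. DESeq2 called 1 mesenchymal marker higher. In the fit without SS+NAC replicate 1, 2 epithelial markers were called lower and 1 mesenchymal marker higher.

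Between SS+NAC and control, the largest rises among genes with at least 10 CPM in a group were those of the immediate early transcription factor EGR1, the chemokines CXCL8 and CXCL2, the stress gene DDIT4, the inhibin subunit gene INHBE and the cystine transporter SLC7A11, and the largest falls were those of the MTRNR2L genes, nuclear copies of mitochondrial ribosomal RNA sequence, and of ID1, an inhibitor of differentiation factors. Of 14005 genes tested, 282 (2.01%) were called, that is, passed the quasi-likelihood test of edgeR with a Benjamini-Hochberg adjusted p of up to 0.05. Among them, 190 (1.36%) were higher and 92 (0.657%) lower in SS+NAC. Among the higher genes 57, and among the lower genes 17, differed by 2-fold or more. The median log2 fold change was 0.72 in the higher genes and -0.46 in the lower genes, compared with 0.00 over all tested genes. For each of the 282 genes, both SS+NAC libraries lay on the same side of both control libraries, as did 3365 (24.0%) of all tested genes above and 3301 (23.6%) below. In fits without a control or SS+NAC library, here and elsewhere, that group held a single library, and the spread came from the other groups. The number of called genes depended on single libraries. It was 98 without control replicate 1, 99 without control replicate 2 and 1086 without SS+NAC replicate 1, and 278 of the 282 were among these 1086. In 139 of the 190 higher genes, SS+NAC replicate 2 lay above SS+NAC replicate 1, and in 69 of the 92 lower genes it lay below. The matching shares over all tested genes were not computed, and the calls used these same libraries.

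**Figure D1:**
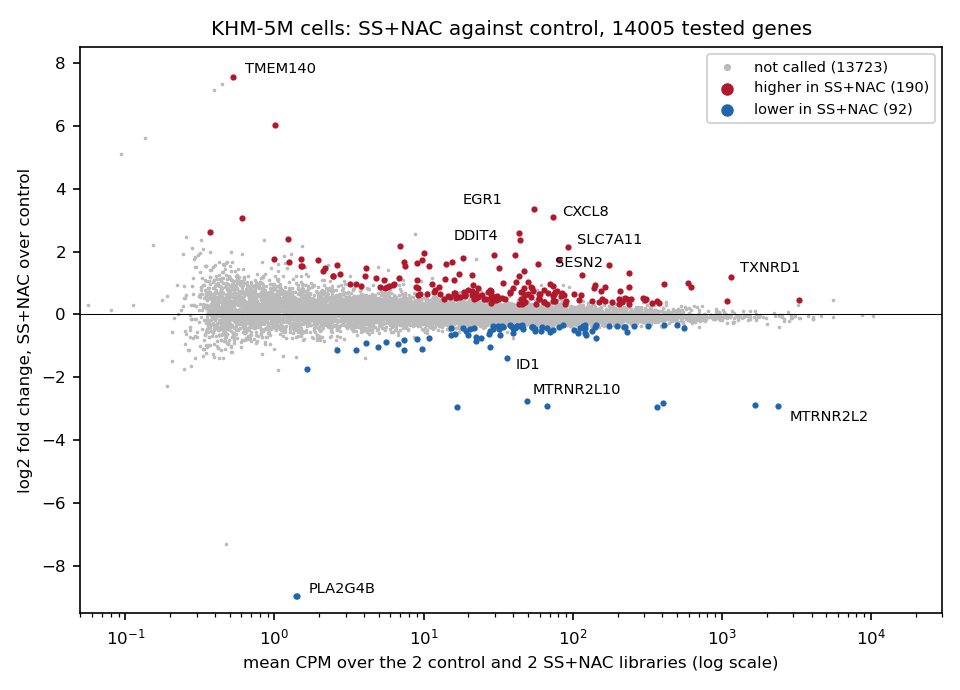
Log2 fold change of SS+NAC over control (vertical axis) against the mean CPM over the 4 compared libraries (horizontal axis, log scale) for 14005 tested genes, with called genes in red (190 higher) and blue (92 lower). EGR1 and CXCL8 have the highest values at levels over 10 CPM, and a row of MTRNR2L genes lies near -3 across a wide range of levels. The fitted values of TMEM140, PLA2G4B and RPS10-NUDT3, which had 0 counts in a group, depend on the prior count and are no measure of size.

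Promoter sequences of 5 genes that rose are shown to give their start-site context. Each is the 250 bases before the start site listed first for that gene in RefSeq (GRCh38.p14). The sequences read 5′ to 3′ on the strand of the gene, and capitals mark matches to 1 motif per gene, searched on both strands. The motifs were the antioxidant response element bound by NRF2 (TGACNNNGC), the element bound by ATF4 with C/EBP partners (TGATGNAA), the NF-kappaB site (GGG and TTTCC separated by any 2 bases) and the metal response element (TGCNCNC). The first sequence is that of TXNRD1, thioredoxin reductase 1, at chr12:104215529-104215778 on the plus strand, the second that of GCLM, a subunit of the first enzyme of glutathione synthesis, at chr1:93909431-93909680 on the minus strand, and the others are those of CHAC1 (chr15:40953221-40953470, plus strand), CXCL2 (chr4:74099196-74099445, minus strand) and MT1X (chr16:56682220-56682469, plus strand).
TXNRD1: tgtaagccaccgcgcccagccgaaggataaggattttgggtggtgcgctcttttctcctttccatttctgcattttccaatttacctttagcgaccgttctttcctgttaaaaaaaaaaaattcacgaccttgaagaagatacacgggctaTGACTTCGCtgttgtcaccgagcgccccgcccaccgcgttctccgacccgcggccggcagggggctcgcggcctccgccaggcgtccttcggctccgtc
GCLM: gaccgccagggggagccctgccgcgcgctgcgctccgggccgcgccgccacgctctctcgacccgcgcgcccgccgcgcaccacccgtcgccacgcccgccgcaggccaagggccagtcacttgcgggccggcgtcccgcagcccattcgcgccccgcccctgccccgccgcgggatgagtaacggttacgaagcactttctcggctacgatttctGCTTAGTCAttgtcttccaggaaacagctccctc
CHAC1: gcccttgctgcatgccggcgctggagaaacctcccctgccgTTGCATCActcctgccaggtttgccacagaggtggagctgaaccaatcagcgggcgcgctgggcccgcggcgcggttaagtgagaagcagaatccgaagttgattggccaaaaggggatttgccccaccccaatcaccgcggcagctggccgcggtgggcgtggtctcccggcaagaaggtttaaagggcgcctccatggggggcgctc
CXCL2: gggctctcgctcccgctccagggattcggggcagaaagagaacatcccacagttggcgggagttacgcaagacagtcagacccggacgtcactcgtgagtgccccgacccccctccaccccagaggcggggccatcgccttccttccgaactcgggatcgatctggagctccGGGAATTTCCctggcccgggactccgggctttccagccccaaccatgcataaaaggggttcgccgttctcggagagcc
MT1X: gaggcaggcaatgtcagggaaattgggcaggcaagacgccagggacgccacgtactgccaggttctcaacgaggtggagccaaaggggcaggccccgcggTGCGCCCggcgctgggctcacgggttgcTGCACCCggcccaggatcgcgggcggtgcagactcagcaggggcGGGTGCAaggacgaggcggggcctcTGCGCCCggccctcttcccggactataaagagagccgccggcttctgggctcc
The antioxidant element started 99 bases before the start site of TXNRD1 and 34 bases before that of GCLM, the ATF4 element 209 bases before that of CHAC1, and the NF-kappaB site 78 bases before that of CXCL2. MT1X held 4 metal response elements. Over 35116 promoter windows of this length, the antioxidant element was found in 10.9%, the ATF4 element in 3.14%, the NF-kappaB site in 1.73% and the short metal response element in 49.1%. Among listed genes with a window, the antioxidant element was found in 5 of 18 NRF2 targets, the ATF4 element in 4 of 21 ATF4 and CHOP targets, the NF-kappaB site in 13 of 25 NF-kappaB targets, and the metal response element in 6 of 8 metallothioneins and zinc transporters. Of the called members alone, these were 3 of 9, 3 of 15, 3 of 7 and 1 of 1. A listed gene was counted if any of its windows held a match. The percentages are shares of windows, so the gene counts are not directly comparable with them. A match describes the sequence and was not tested as a binding site.

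SLC7A11, CTH, GCLM, GCLC and GSR, which serve cystine uptake, cysteine supply and glutathione synthesis and reduction, rose with SS+NAC. SLC7A11 (chromosome 4, 138164097 to 138242349, GRCh38 in GENCODE release 29) had 32.8 and 36 CPM in the control libraries, 133 and 168 CPM in the SS+NAC libraries and 22.8 and 23.2 CPM in the SS libraries. The SS+NAC libraries were thus far above both other groups, and the SS libraries were the lowest. Its mean rose from 34.4 ± 2.30 CPM (SD, n = 2) to 151 ± 24.7 CPM, a log2 fold change over control of 2.13 (SE 0.111, edgeR adjusted p = 2.36e-06). Against SS it was 2.71 higher on the log2 scale (edgeR adjusted p = 2.70e-06), while SS against control gave -0.58. The comparisons with control and with SS share the SS+NAC libraries, and in the comparison with SS 5985 of all tested genes (42.7%) were called, so a call there was common.

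CTH, which makes cysteine from cystathionine, had 3.45 and 3.57 CPM in control, 3.62 and 3.79 CPM in SS, and 10.8 and 11.7 CPM in SS+NAC. Control and SS were close for this gene, without overlap, and SS+NAC stood apart (log2 fold change over control 1.68, SE 0.141, edgeR adjusted p = 0.000134). The pair GCLM and GCLC, which form glutamate-cysteine ligase, rose as well. GCLM had 49.5 and 52.8 CPM in control and 89.6 and 103 CPM in SS+NAC, and GCLC had 42.7 and 38.7 CPM and 58.1 and 78.3 CPM. Their log2 fold changes were 0.91 and 0.75 (edgeR adjusted p = 0.000299 and 0.0135). GSR, which reduces oxidized glutathione, rose by 0.74 on the log2 scale (SE 0.0708, edgeR adjusted p = 0.000335). CHAC1, which degrades glutathione, moved in the same direction, from 8.28 and 8.19 CPM to 28.4 and 28.8 CPM (log2 fold change 1.80, SE 0.0971, edgeR adjusted p = 3.02e-06), and its SS libraries lay between, at 12.8 and 13.2 CPM. GSS, the second enzyme of glutathione synthesis, was not called. In all, 7 of 22 tested genes of glutathione and cysteine metabolism were higher (1.36% of all tested genes) and 0 lower, with a median of 0.25, and the number higher was between 6 and 8 when each library was left out.

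Of 25 tested NRF2 targets, 15 were higher (1.36% of all tested genes) and 0 lower (0.657%), 24 had a log2 fold change above 0 (6913 of all 14005), and the median was 0.75 (0.41 for SS against control). Without control replicate 2, 9 were called, 11 without control replicate 1, 13 without SS+NAC replicate 2 and 17 without SS+NAC replicate 1. TXNRD1, the selenoprotein that reduces thioredoxin, had 711 and 702 CPM in control, 669 and 681 CPM in SS, and 1553 and 1666 CPM in SS+NAC. It did not differ detectably between SS and control (log2 fold change -0.07, edgeR adjusted p = 0.536) and was 1.19 above control in SS+NAC (SE 0.0787, edgeR adjusted p = 1.64e-05). Per length, its mean level was 348 TPM (RSEM's level per transcript length) in control and 827 TPM in SS+NAC, compared with 6.93 and 31.8 TPM for SLC7A11. EID3, a low gene that lies inside TXNRD1 on the same strand, was also called. It had 0.167 and 0.588 CPM in control and 2.36 and 1.83 CPM in SS+NAC. The transcripts of EID3 and TXNRD1 shared no window of 50 bases. The log2 fold change of EID3 was 2.39 (SE 0.463, edgeR adjusted p = 0.0281), and it lay between 1.82 and 3.61 over the alternatives. Without control replicate 1 its call was lost (log2 fold change 1.82, edgeR adjusted p = 0.16).

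SRXN1, sulfiredoxin, which repairs over-oxidized peroxiredoxins, had 136 and 140 CPM in control, 147 and 143 CPM in SS and 334 and 349 CPM in SS+NAC. This is the same layout as for TXNRD1, with SS next to control and SS+NAC alone (log2 fold change 1.31, SE 0.0726, edgeR adjusted p = 3.30e-06). Other NRF2 targets were stepped. OSGIN1, an oxidative stress-induced growth inhibitor, had 11.7 and 13.1 CPM in control, 20.8 and 22 CPM in SS and 50.4 and 42.7 CPM in SS+NAC, and the autophagy receptor gene SQSTM1 had 431 and 449, 588 and 584, and 785 and 816 CPM. HMOX1, heme oxygenase 1, had 17.4 and 15.7, 22.8 and 21.8, and 29.1 and 30.7 CPM. In these 3 genes the SS libraries lay between control and SS+NAC, without overlap. For the quinone reductase NQO1 and the ferritin chain FTH1, SS and SS+NAC overlapped. FTH1 lost its call without either control library or SS+NAC replicate 2 (log2 fold change 0.39, edgeR adjusted p = 0.065). NQO1 had 251 and 261 CPM in control, 362 and 375 CPM in SS and 353 and 374 CPM in SS+NAC, 0.51 above control (edgeR adjusted p = 0.00727) and -0.02 from SS (edgeR adjusted p = 0.852). TXN, thioredoxin itself, had 224 and 235 CPM in control, 228 and 230 CPM in SS+NAC and 316 and 366 CPM in SS, and was not called against control (log2 fold change -0.00, edgeR adjusted p = 0.994).

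TRIM16L and its near copy TRIM16, members of a ubiquitin ligase family that belonged to no list, rose by 1.87 and 1.39 on the log2 scale. TRIM16L had 17.6 and 17.4 CPM in control, 25.1 and 22.5 CPM in SS and 63.8 and 64.4 CPM in SS+NAC (SE 0.0846, edgeR adjusted p = 6.54e-07). Of the 50-base windows of TRIM16L, 50 bases being the read length, 42.6% also occur in other genes, with TRIM16 sharing the most, so their separate values are uncertain. Similarly, 84.7% of the SRXN1 windows also occur in an overlapping transcript.

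**Figure D2:**
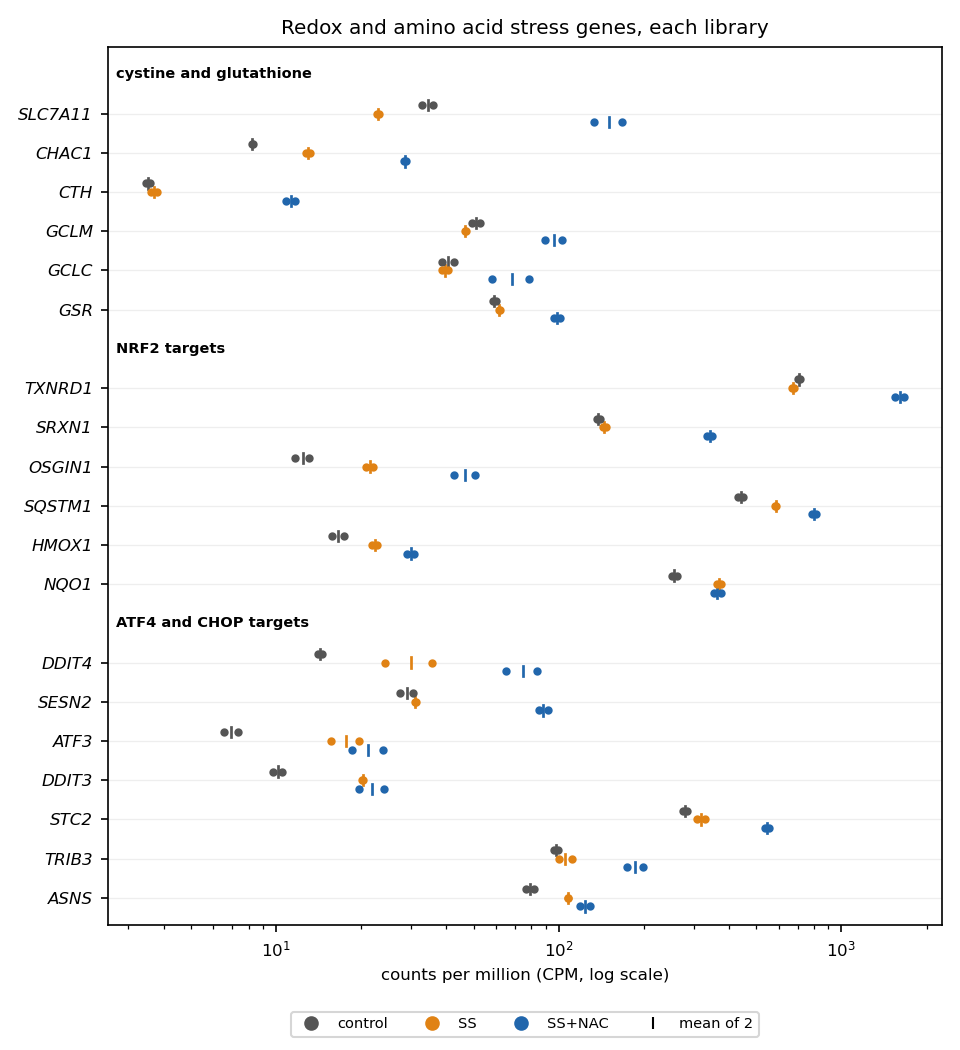
CPM on a log scale (horizontal axis) in each of the 6 libraries for 19 genes of cystine and glutathione metabolism, NRF2 targets and ATF4 and CHOP targets, with a point per library and a bar at the mean of 2. The SS+NAC points (blue) lie to the right of the control points (grey) in each gene, and for SLC7A11, GCLM and TXNRD1 the SS points (orange) lie to the left of control.

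Of 29 tested ATF4 and CHOP targets, 17 were called higher (1.36% of all tested genes) and 0 lower. The lists share members. Of the called ATF4 and CHOP targets, 1 is also an NRF2 target and 2 are also in the glutathione and cysteine list. The NRF2 and the glutathione and cysteine lists share 4 called genes. All 29 had a log2 fold change above 0 and both SS+NAC libraries above both controls (24.0% of all tested genes). The median was 0.52 (0.21 for SS against control). The number higher was 12 without either control library, 16 without either SS library, 17 without SS+NAC replicate 2 and 20 without SS+NAC replicate 1. ATF4 mRNA itself had 577 and 608 CPM in control, 728 and 710 CPM in SS+NAC and 800 and 812 CPM in SS, and was not called against control (log2 fold change 0.28, edgeR adjusted p = 0.102).

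DDIT4, an inhibitor of mTOR complex 1 also known as REDD1, had 14.1 and 14.5 CPM in control, 35.6 and 24.3 CPM in SS, and 65.2 and 83.7 CPM in SS+NAC (log2 fold change 2.38, SE 0.174, edgeR adjusted p = 4.19e-05). SESN2, sestrin 2, which restrains mTOR complex 1 when leucine is scarce, had 27.5 and 30.6 CPM in control, 30.9 and 31.2 CPM in SS, and 91.3 and 85.2 CPM in SS+NAC (log2 fold change 1.60, SE 0.0829, edgeR adjusted p = 2.36e-06). Both genes were highest in SS+NAC, and SS differed from control in DDIT4 but not detectably in SESN2 (edgeR adjusted p = 0.407). They were the only 2 called genes of the 27 tested in the mTOR and 4E-BP list (2.01% of all tested genes). The median of this list was -0.11. Without SS+NAC replicate 1, 3 other members were called lower, and 1 without SS+NAC replicate 2. The pseudokinase gene TRIB3 had the SESN2 layout, with 99.3 and 96.2 CPM in control, 100 and 111 CPM in SS and 199 and 174 CPM in SS+NAC. STC2, a secreted glycoprotein, had 284 and 276, 329 and 308, and 535 and 554 CPM, with SS slightly above control.

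For the transcription factors ATF3 and DDIT3 (CHOP), the SS and SS+NAC levels were close. DDIT3 had 9.73 and 10.5 CPM in control, 20.3 and 20.2 CPM in SS and 19.7 and 24.1 CPM in SS+NAC, a log2 fold change of 1.11 over control (edgeR adjusted p = 0.000803) and of 0.11 over SS (edgeR adjusted p = 0.436). VLDLR and ALDH1L2, a mitochondrial folate enzyme, showed the opposite layout, with SS the lowest group. ALDH1L2 had 36.3 and 38.5 CPM in control, 23.5 and 25.0 CPM in SS and 52.8 and 53 CPM in SS+NAC, which is 0.50 above control (edgeR adjusted p = 0.00869) and 1.13 above SS (edgeR adjusted p = 3.71e-05). The serine and asparagine synthesis genes PSAT1 and ASNS and the mitochondrial folate enzyme MTHFD2 rose by 0.40 to 0.65. The cytokine-like stress gene GDF15 was low, at 0.834 and 1.49 CPM in control and 2.57 and 3.57 CPM in SS+NAC (log2 fold change 1.37, edgeR adjusted p = 0.0491), and its call was lost under 12 of 18 alternatives, with a value of 1.04 without control replicate 1 (edgeR adjusted p = 0.277). INHBE, an inhibin subunit outside the lists, rose from 2.11 and 2.80 CPM to 10.5 and 12.2 CPM, with 2.53 and 1.96 CPM in SS (log2 fold change 2.19, SE 0.186, edgeR adjusted p = 0.00014).

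Amino acid transporters were called in 4 of 17 cases, all higher (1.36% of all tested genes), with a median of 0.16. They were the taurine carrier SLC6A6 (44.3 and 50.0 CPM in control, 83.3 and 79.4 CPM in SS+NAC), the glycine carrier SLC6A9, the neutral amino acid carrier SLC1A4 and SLC3A2, the heavy chain that pairs with SLC7A11 and other light chains. SLC3A2 had 227 and 255 CPM in control, 321 and 335 CPM in SS and 373 and 327 CPM in SS+NAC, and so differed from SLC7A11 in that SS was already above control (0.44, edgeR adjusted p = 0.00354). Without control replicate 1, only 1 of these 4 transporters remained called. The leucine carrier SLC7A5 had 348 and 377, 277 and 280, and 526 and 431 CPM in control, SS and SS+NAC and was not called against control (log2 fold change 0.40, edgeR adjusted p = 0.0732). In the list of endoplasmic reticulum chaperones and unfolded protein response genes, 3 of 19 were called, all higher (1.36% of all tested genes), namely XBP1, DNAJB9 and HERPUD1, with a median of 0.06. XBP1, a transcription factor of this response, had 158 and 152 CPM in control, 190 and 180 CPM in SS and 257 and 263 CPM in SS+NAC (log2 fold change 0.75, edgeR adjusted p = 0.000347). The chaperone HSPA5, the usual marker of this response, was at 842 and 866 CPM in control and 972 and 967 CPM in SS+NAC (log2 fold change 0.18, edgeR adjusted p = 0.265). DNAJB9 lost its call without either control library. HERPUD1 lost it under 13 of 18 alternatives, with 0.31 without SS+NAC replicate 2 (edgeR adjusted p = 0.0851).

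EGR1 had the largest log2 fold change of the called genes with at least 10 CPM in a group. The gene (chromosome 5, 138465490 to 138469315) encodes a zinc finger transcription factor that growth factor and stress signals induce within minutes. It had 10.3 and 9.41 CPM in control, 25.6 and 18.5 CPM in SS and 97.6 and 104 CPM in SS+NAC. The 3 groups did not overlap, and the replicates in SS+NAC were close. The mean rose from 9.85 ± 0.618 CPM (SD, n = 2) to 101 ± 4.33 CPM, a log2 fold change of 3.36 (SE 0.139, edgeR adjusted p = 3.62e-07), and it lay 2.19 above SS (edgeR adjusted p = 1.16e-05). Over the alternatives its log2 fold change stayed between 3.29 and 3.42.

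Of the 23 tested immediate early genes, 10 were called higher (1.36% of all tested genes) and 1 lower (0.657%), with a median of 0.48. The subunits of the AP-1 transcription factor were among the risers. FOS had 5.11 and 3.75 CPM in control, 10.7 and 8.91 CPM in SS and 12.5 and 14.8 CPM in SS+NAC (log2 fold change 1.64, edgeR adjusted p = 0.000675). JUNB had 32.1 and 33.3, 72.0 and 54.3, and 57.1 and 77.0 CPM, so that SS and SS+NAC overlapped, and FOSB and JUN rose by 1.09 and 0.48. IER2 had 58.9 and 58.2 CPM in control, 66.1 and 68.2 CPM in SS and 95.0 and 86.8 CPM in SS+NAC. KLF6, a zinc finger factor, was the member that fell, from 228 and 220 CPM to 162 and 185 CPM (log2 fold change -0.37, edgeR adjusted p = 0.0485). The number called higher was 6 without control replicate 2, 7 without control replicate 1, 12 without SS+NAC replicate 1, and 10 without each of the others. A member was called lower without SS+NAC replicate 2, and 0 in each other fit that left out a library.

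Feedback genes of the ERK pathway were mixed. The phosphatase genes DUSP1, DUSP4 and DUSP5 and IER3 were higher, 4 of 17 tested (1.36% of all tested genes), with 0 lower and a median of -0.05. Without SS+NAC replicate 1, 3 members were called lower, and 1 without SS+NAC replicate 2, and DESeq2 called 1 lower. DUSP1 was the exception among them in its order of groups, with 46.6 and 47.0 CPM in control, 100 and 89.8 CPM in SS and 69.5 and 78.5 CPM in SS+NAC, which is 0.66 above control (edgeR adjusted p = 0.00385) and -0.36 from SS (edgeR adjusted p = 0.00659). DUSP6, the SPRY genes and the ETV factors, which report ERK activity in many cells, were not called. DUSP4, DUSP5 and IER3 lost their calls without control replicate 2, and without control replicate 1 only 2 of the 4 were called. Among EGF ligands and receptors, 1 of 12 was called, and it was higher (1.36% of all tested genes). Their median was 0.41, but -0.01 without SS+NAC replicate 2 and 0.17 without control replicate 2. This was the ligand gene EREG (epiregulin), with 5.89 and 5.25 CPM in control, 6.41 and 5.07 CPM in SS and 12.1 and 20.3 CPM in SS+NAC (log2 fold change 1.55, edgeR adjusted p = 0.00751). HBEGF, another ligand, had 43.2 and 46.8 CPM in control and 38.9 and 34.2 CPM in SS+NAC, without a call.

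Chemokine and cytokine genes were among those that rose, with a wide gap between the SS+NAC replicates for CXCL8, CXCL2 and CXCL1. All 33 tested NF-kappaB targets and cytokines had a log2 fold change above 0, and 28 had both SS+NAC libraries above both controls (24.0% of all tested genes). Of these 33, 12 were called higher (1.36% of all tested genes) and 0 lower, and 26 had an unadjusted p under 0.05 (16.1% of all tested genes). The median was 0.89 (0.61 for SS against control). CXCL8, which encodes the neutrophil-attracting chemokine interleukin 8, had 19.3 and 11.8 CPM in control, 72.3 and 33.1 CPM in SS, and 65.6 and 197 CPM in SS+NAC. The groups SS and SS+NAC overlapped, and SS+NAC replicate 2 was the highest library. The log2 fold change over control was 3.09 (SE 0.504, edgeR adjusted p = 0.0122), with 2.09 without SS+NAC replicate 2 and 3.68 as the highest value over the alternatives. CXCL2 had 13.8 and 11.1 CPM in control, 45.5 and 22.9 CPM in SS and 55.7 and 94.9 CPM in SS+NAC (log2 fold change 2.60, SE 0.319, edgeR adjusted p = 0.00209). Another chemokine, CXCL1, had 100 and 76.3, 256 and 141, and 176 and 354 CPM in the same order of groups.

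Other called members of this list were CXCL3, the cytokine genes IL1A, LIF and CSF1, the acute phase gene SAA1, the prostaglandin synthase PTGS2, the complement gene C3, the adhesion molecule ICAM1 and the NF-kappaB subunit RELB. CXCL3 lost its call without control replicate 2 (1.57, edgeR adjusted p = 0.0692), as did C3 (0.77, edgeR adjusted p = 0.0814). C3 had 182 and 153 CPM in control, 202 and 149 CPM in SS and 272 and 346 CPM in SS+NAC, 0.89 above control (edgeR adjusted p = 0.0148). RELB had 17.7 and 15.4, 27.7 and 22.5, and 23 and 27.8 CPM, and so lay at the level of SS. SAA1 shares 46.6% of its 50-base windows with other genes, mainly SAA2. CEBPD, a transcription factor of acute inflammation outside the list, had 43.4 and 32.2 CPM in control, 145 and 87.6 CPM in SS and 83.4 and 164 CPM in SS+NAC (log2 fold change 1.72, edgeR adjusted p = 0.0177). Its call was lost without control replicate 2 (1.51, edgeR adjusted p = 0.0618).

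The count for this list moved with single libraries. It was 26 without SS+NAC replicate 1 and 3 without control replicate 2, and lay at 7 without control replicate 1, 10 without SS+NAC replicate 2 and 13 without either SS library. The median was between 0.55 and 1.22 in these fits. SAA2, CSF3, IL6 and TNF were not called in the fit of all libraries. The read-through gene SAA2-SAA4, whose counts were 0 and 1 (control), 35 and 16 (SS), and 18 and 78 (SS+NAC), was called higher, and 93.7% of its windows occur in other genes, with SAA2 sharing the most, so the division of reads between them is uncertain. The zinc finger gene ZSCAN31 and EREG had the same gap between SS+NAC replicates, with 10.5 and 19.6 CPM for ZSCAN31. Markers of blood and immune cells summed to 95.6 to 97.9 CPM in SS+NAC and 78.1 to 84.4 CPM in control, almost all of it CD68, with PTPRC at 0.445 and 0.452 CPM in control and 0.373 and 0.582 CPM in SS+NAC, and CD3E at or near 0. Their part in these results was not tested.

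**Figure D3:**
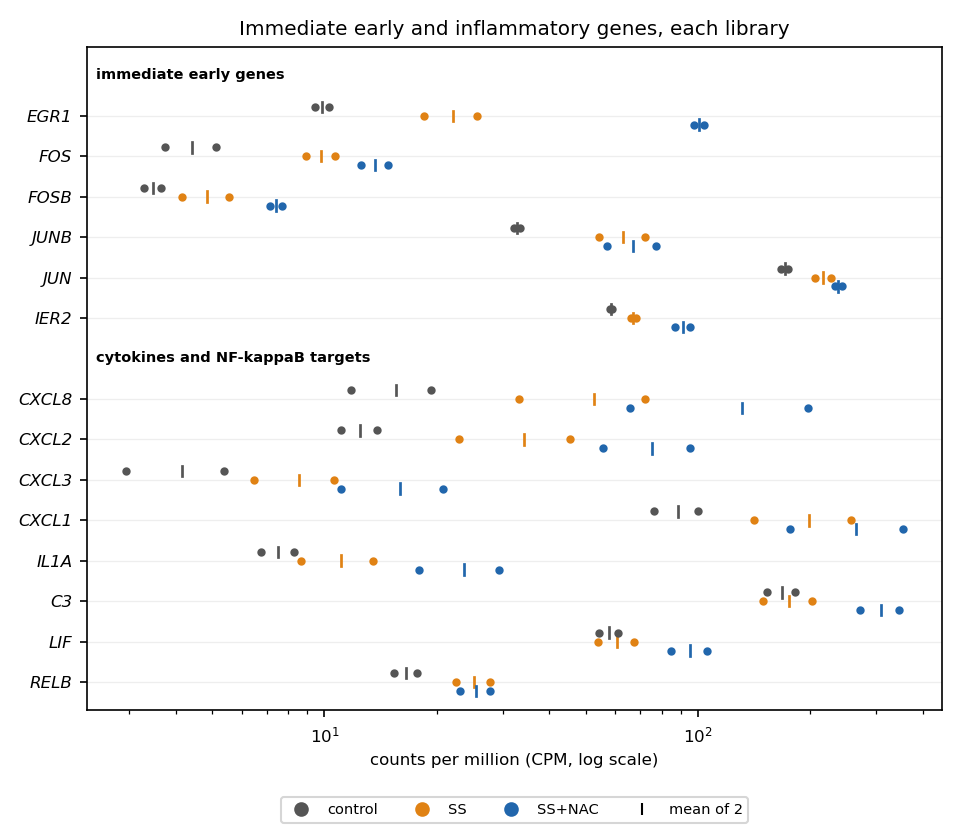
CPM on a log scale (horizontal axis) in each of the 6 libraries for 6 immediate early genes and 8 cytokines and NF-kappaB targets, with a point per library and a bar at the mean of 2. EGR1 in SS+NAC (blue) is separate from SS (orange) and control (grey), whereas for CXCL8, CXCL1 and RELB the SS and SS+NAC points overlap.

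Of 33 tested interferon-stimulated genes, edgeR called 0 and DESeq2 0, 12 had an unadjusted p under 0.05 (16.1% of all tested genes), all of them higher, and the median was 0.25. In the fit without SS+NAC replicate 1, 6 were called. The lowest p was that of IRF9, with 11.3 and 10.8 CPM in control and 14.9 and 16.0 CPM in SS+NAC (log2 fold change 0.49, edgeR adjusted p = 0.0641), and IRF9 shares 43.6% of its windows with another transcript. In the antigen presentation list, 3 of 15 were called, all higher (1.36% of all tested genes), with a median of 0.23, among them the classical MHC class I genes HLA-B and HLA-C, which present peptides at the cell surface. HLA-B had 197 and 188 CPM in control, 259 and 245 CPM in SS and 257 and 285 CPM in SS+NAC (log2 fold change 0.49, edgeR adjusted p = 0.0120). For both, the SS and SS+NAC libraries overlapped, and all 3 calls of the list were lost without either control library. In the fit without SS+NAC replicate 1, 6 members of this list were called.

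Metal-related genes changed in part. Of 14 tested metallothioneins and zinc transporters, MT1X and MT1F were higher (1.36% of all tested genes) and 0 lower, with a median of -0.01 (0.57 for SS against control). At an unadjusted p under 0.05, 3 were higher and 2 lower, beside 1276 and 980 of all 14005 tested genes. MT1X, whose promoter is shown above, had 19.8 and 22.7 CPM in control, 33 and 33.5 CPM in SS and 34.9 and 35.9 CPM in SS+NAC (log2 fold change 0.73, SE 0.0885, edgeR adjusted p = 0.00188). MT1F lost its call without control replicate 1 (0.81, edgeR adjusted p = 0.0511). MT2A had 1311 and 1276 CPM in control, 1795 and 2081 CPM in SS and 1173 and 1016 CPM in SS+NAC. It was thus higher in SS and at or under control in SS+NAC, without a call against control (log2 fold change -0.24, edgeR adjusted p = 0.274). The zinc exporter SLC30A1, a marker of free zinc, was not called. In iron and heme handling, HMOX1, the heme synthesis enzyme ALAS1 and FTH1 were higher, 3 of 17 (1.36% of all tested genes), with a median of 0.28 (0.11 without SS+NAC replicate 2). The number was 1 without control replicate 1, 2 without control replicate 2 or SS+NAC replicate 2, and 6 without SS+NAC replicate 1. FTH1 had 2802 and 2686 CPM in control, 3699 and 3666 CPM in SS and 3593 and 4030 CPM in SS+NAC.

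Of 19 tested selenoproteins, which carry selenium as selenocysteine, TXNRD1 alone was called against control (2.01% of all tested genes), with 3 members, all higher, at an unadjusted p under 0.05 (16.1% of all tested genes) and a median of 0.02. Between SS and control, where 40.0% of all tested genes were called (18.6% higher, 21.4% lower), 10 selenoproteins were higher and 3 lower. GPX4, the glutathione peroxidase that protects membranes, had 197 and 193 CPM in control, 286 and 306 CPM in SS and 226 and 224 CPM in SS+NAC. It lay between the groups and was not called against control (log2 fold change 0.20, edgeR adjusted p = 0.204). Of 9 genes of the selenocysteine machinery, edgeR and DESeq2 called 0, with a median of 0.04, and 1, SEPSECS, had an unadjusted p under 0.05. Among 16 thioredoxins, peroxiredoxins and superoxide dismutases, edgeR and DESeq2 called 0, 3 had an unadjusted p under 0.05, and the median was -0.05 (0.44 for SS against control). SOD2, mitochondrial superoxide dismutase and an NF-kappaB target, had 70.8 and 64.0 CPM in control, 88.6 and 70.9 CPM in SS and 88.4 and 157 CPM in SS+NAC (log2 fold change 0.87, edgeR adjusted p = 0.0732), with the gap between replicates seen in the cytokines. In the fit without SS+NAC replicate 1, 1 gene of this list, 1 of the selenocysteine machinery and 2 selenoproteins were called, all higher.

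**Figure D4:**
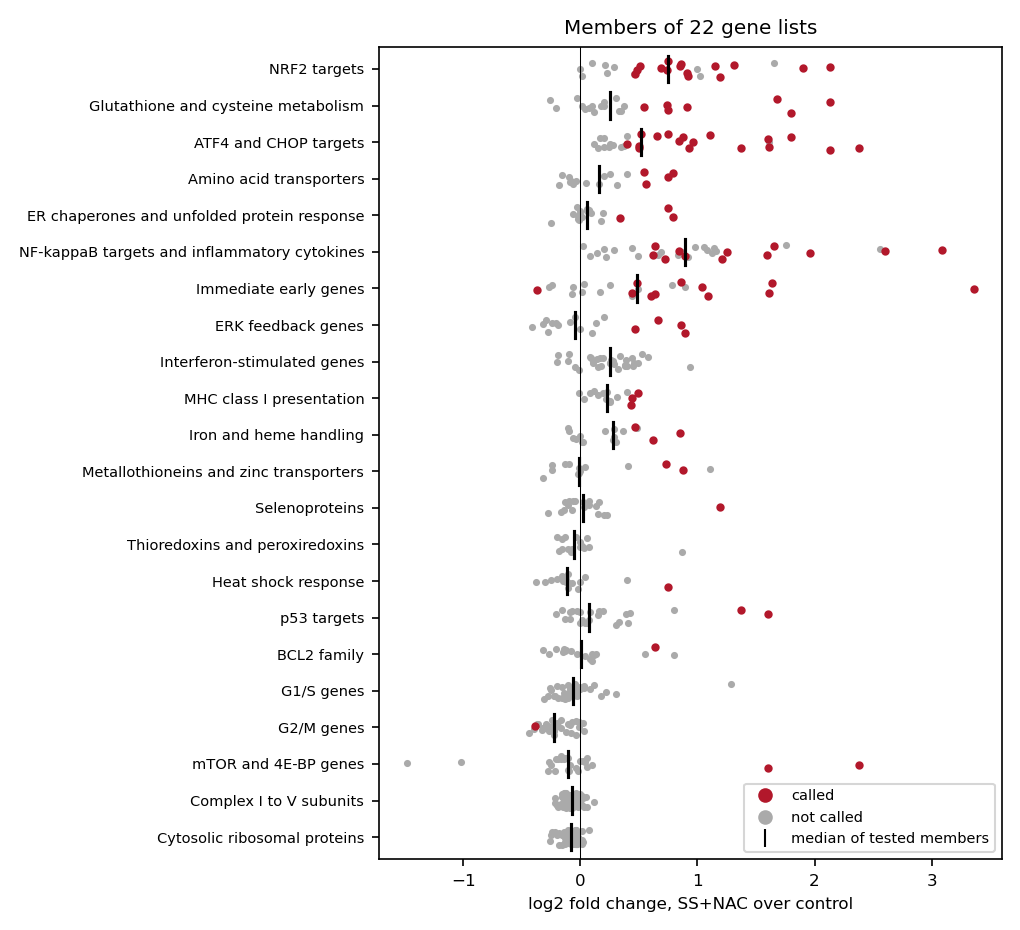
Log2 fold change of SS+NAC over control (horizontal axis) of each tested member of 22 gene lists, with called members in red, others in grey and a bar at the median. The NRF2, ATF4 and CHOP, NF-kappaB and immediate early lists have medians between 0.48 and 0.89, whereas complex I to V subunits and ribosomal proteins lie in a narrow band at -0.07 and -0.08.

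The genes that fell were led by the MTRNR2L family, intronless nuclear genes copied from the mitochondrial 16S ribosomal RNA gene that can encode peptides like humanin. MTRNR2L2 had 4220 and 4155 CPM in control, 931 and 949 CPM in SS, and 619 and 505 CPM in SS+NAC (log2 fold change -2.90, SE 0.107, edgeR adjusted p = 1.69e-07). MTRNR2L8 had 2904 and 2935, 690 and 685, and 428 and 372 CPM. MTRNR2L1, MTRNR2L3, MTRNR2L6, MTRNR2L9 and MTRNR2L10 fell by 2.74 to 2.94 on the log2 scale, and MTRNR2L4, at 2.39 and 2.67 CPM in control, fell by 1.72. Summed over the 9 tested genes of the family, the level was 8650 and 8747 CPM in control, 2010 and 2037 CPM in SS, and 1284 and 1078 CPM in SS+NAC, which is 0.882% and 0.878%, 0.196% and 0.187%, and 0.131% and 0.115% of all expected counts. Within the called members, SS+NAC was also below SS in the same fit, with the exception of MTRNR2L4 (log2 difference -0.39, edgeR adjusted p = 0.356), whose call against control was lost without either control library. In the transcripts of GENCODE release 29, between 0% and 8.93% of the 50-base windows of these genes occurred unchanged in the mitochondrial gene MT-RNR2. For MTRNR2L2 and MTRNR2L9 the annotated transcripts gave 38 and 26 windows, whereas the effective lengths in the counts were 1019 and 500 bases, so their shares of 0% do not describe the sequence that was counted. Which copy the reads came from was not tested, so the values of single genes are uncertain.

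Of the other genes that fell, ID1 and ID3 are inhibitors of basic helix-loop-helix transcription factors and typical targets of BMP signaling. ID1 had 49.9 and 55.0 CPM in control, 40.8 and 49.6 CPM in SS and 20.7 and 19.3 CPM in SS+NAC (log2 fold change -1.39, SE 0.107, edgeR adjusted p = 5.94e-05). ID3 had 34.0 and 41.3 CPM in control, 40.2 and 50.7 CPM in SS and 19.8 and 16.9 CPM in SS+NAC (log2 fold change -1.04, edgeR adjusted p = 0.00315). For both, SS overlapped or nearly overlapped control, and SS+NAC was below both groups. The same order was seen for DKK1, a secreted inhibitor of WNT signaling, with 27.9 and 29.8, 25.1 and 29.4, and 16.5 and 15.8 CPM (log2 fold change -0.84, edgeR adjusted p = 0.00188).

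PLXNA4, a semaphorin receptor, and ITGA6, the integrin alpha 6 chain, fell in both treated groups. PLXNA4 had 11.9 and 14.7 CPM in control, 7.10 and 6.99 CPM in SS and 6.50 and 5.86 CPM in SS+NAC (log2 fold change -1.11, edgeR adjusted p = 0.00252), and ITGA6 had 267 and 283, 160 and 170, and 201 and 177 CPM (log2 fold change -0.54, edgeR adjusted p = 0.00937). In the list of extracellular matrix genes and integrins, ITGA6 was the 1 member called lower (0.657% of all tested genes) and COL7A1 the 1 called higher (1.36%), of 34 tested, with a median of 0.09, and both calls were lost without either control library. Without SS+NAC replicate 1, 4 were called higher and 1 lower. RGS4, a regulator of G protein signaling, fell from 4.50 and 5.16 CPM to 2.57 and 1.83 CPM and lost its call without either control library or without SS+NAC replicate 2 (log2 fold change -0.92, edgeR adjusted p = 0.0561).

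**Figure D5:**
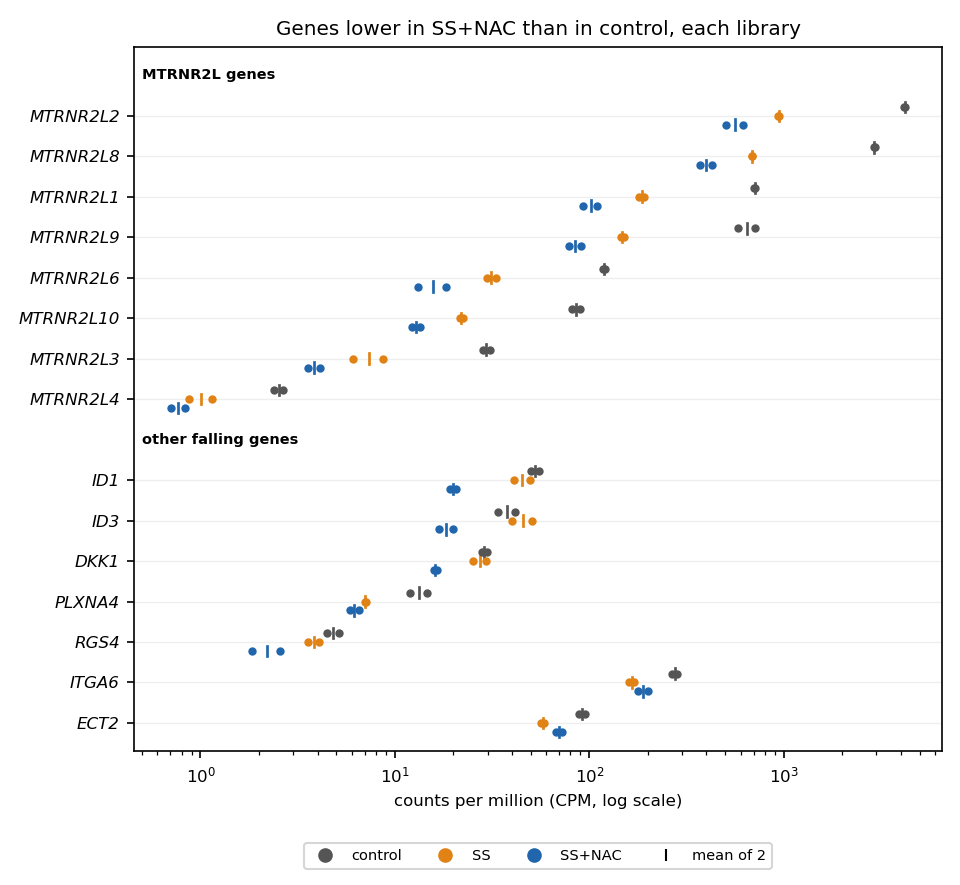
CPM on a log scale (horizontal axis) in each of the 6 libraries for 8 MTRNR2L genes and 7 other genes called lower in SS+NAC, with a point per library and a bar at the mean of 2. The MTRNR2L genes step down from control (grey) to SS (orange) to SS+NAC (blue), whereas ID1, ID3 and DKK1 are lowest in SS+NAC with SS beside control.

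A few called genes at the lower end of detection had 0 or few counts in a group. TMEM140 was at 0 counts in each control library, at 8 and 5 in the SS libraries and at 30 and 21 in the SS+NAC libraries, which is at least 6.99-fold higher with 3 counts set in place of 0 in each control library. TMEM140 lies inside CYREN on the other strand. No source states that reads were counted by strand, and whether exons of these 2 genes overlap was not tested. Some reads counted for TMEM140 may therefore come from CYREN. For TBC1D3H, control libraries held 2 and 3 counts and SS+NAC libraries 22 and 30, its call was lost without either control library, and all of its windows occur in other copies of TBC1D3. PLA2G4B, a phospholipase gene, went from 73 and 35 counts (control) and 75 and 49 (SS) to 0 in each SS+NAC library, at least 22.7-fold lower. It shares 70.8% of its windows, mainly with the read-through gene JMJD7-PLA2G4B, which moved the other way with a log2 fold change of 1.08 and was also called. The division of reads between these 2 genes is an estimate, so neither value stands alone. The read-through gene RPS10-NUDT3 was also called, at least 22.4-fold lower. It had 58 and 52 counts in control, 159 and 38 in SS and 0 in each SS+NAC library. Of its windows, 95.8% occur in other genes, with NUDT3 sharing the most, so its value is uncertain.

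In the list of G2/M genes, which act in mitosis, 1 of 35 tested members was called by edgeR, and it was lower (0.657% of all tested genes), whereas DESeq2 called 7 lower. In all, 33 members had a log2 fold change below 0, 27 had both SS+NAC libraries below both controls (23.6% of all tested genes), and 21 had an unadjusted p under 0.05 (16.1% of all tested genes), all lower. The median was -0.23 (-0.07 for SS against control) and -0.14 without SS+NAC replicate 2. The called member was ECT2, an exchange factor for cytokinesis. ECT2 had 94.5 and 88.5 CPM in control, 56.5 and 58.4 CPM in SS and 67.7 and 72.2 CPM in SS+NAC (log2 fold change -0.39, SE 0.0748, edgeR adjusted p = 0.0277). Its call was lost without either control library or either SS library, and 11 members of the list were called lower without SS+NAC replicate 1 and 5 without SS+NAC replicate 2. CENPE, a mitotic motor, had 56.4 and 47.5 CPM in control, 13.6 and 16.4 CPM in SS and 36.2 and 40.3 CPM in SS+NAC, so that SS+NAC lay between the other groups (log2 fold change -0.44, edgeR adjusted p = 0.0732). Of 42 G1/S genes, edgeR and DESeq2 called 0 and 8 had an unadjusted p under 0.05, 3 higher and 5 lower, with a median of -0.07 (-0.15 without SS+NAC replicate 1, 0.00 without SS+NAC replicate 2). In the fit without SS+NAC replicate 1, 2 G1/S genes were called higher and 4 lower.

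In the p53 list, 2 of 25 were called (2.01% of all tested genes), SESN2 and GDF15, which are also ATF4 and CHOP targets, and the median was 0.07. DESeq2 called 1 member of the p53 list. The number called by edgeR rose or fell with the library that was left out. CDKN1A, the p53 target that encodes the cell cycle inhibitor p21, had 14.2 and 14.5 CPM in control, 31.7 and 24.8 CPM in SS and 17.2 and 18.0 CPM in SS+NAC, and was not called against control (log2 fold change 0.30, edgeR adjusted p = 0.278) but lay below SS (-0.68, edgeR adjusted p = 0.00126). In the BCL2 family, PMAIP1 (NOXA) was the 1 called of 18 (2.01% of all tested genes), with 49.5 and 43.0 CPM in control, 67.6 and 61.1 CPM in SS and 62.8 and 81.1 CPM in SS+NAC, a call lost without either control library, and the median was 0.01. Without SS+NAC replicate 1, 3 members of this family were called higher and 1 lower. HSPA1B was the 1 called of 18 heat shock genes, beside 2.01% of all tested genes (115 and 118 CPM in control, 204 and 187 CPM in SS+NAC), and it shares 73.5% of its windows with other transcripts, mainly HSPA1A. The median of this list was -0.12. The calls were 1 higher and 2 lower without SS+NAC replicate 1, and 2 higher and 1 lower without SS+NAC replicate 2, and DESeq2 called 2 higher and 1 lower. In hypoxia and glycolysis, the peptide hormone ADM and the angiogenic factor VEGFA were higher, 2 of 31 (1.36% of all tested genes), with a median of 0.00 and 6 called without SS+NAC replicate 1. VEGFA lost its call without either control library (0.59 without replicate 2, edgeR adjusted p = 0.152). ABCA1, a cholesterol exporter, was the 1 called of 32 genes of cholesterol synthesis and uptake (2.01% of all tested genes), whose median was -0.02, and its call was lost without control replicate 2 (0.72, edgeR adjusted p = 0.0768). In this list 1 member was called higher and 2 lower without SS+NAC replicate 1, and DESeq2 called 1 in each direction.

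No subunit of respiratory complexes I to V was called between SS+NAC and control (0 of 75 by edgeR, 0 by DESeq2, 3 with an unadjusted p under 0.05, all lower). Their median log2 fold change was -0.07, with members from -0.22 to 0.12, and it was -0.03 without SS+NAC replicate 2 and -0.12 without SS+NAC replicate 1. This compared with a median of 0.54 for SS against control. ATP5ME, the member with the lowest p, had 42.9 and 47.2 CPM in control, 65.9 and 70.4 CPM in SS and 38.8 and 38.4 CPM in SS+NAC (log2 fold change -0.22, edgeR adjusted p = 0.212). For the 78 cytosolic ribosomal proteins, edgeR and DESeq2 called 0 and 0 had an unadjusted p under 0.05, with a median of -0.08 (0.00 without SS+NAC replicate 2, -0.15 without SS+NAC replicate 1) and of 0.50 for SS against control. Without SS+NAC replicate 1, 4 ribosomal protein genes were called lower. Across genes, fold changes of SS against control fell with transcript length (Spearman's rho -0.68 over the 14005 genes, which are not replicates). For SS+NAC against control, rho was -0.04, and the median log2 fold change was -0.02 in the shortest and -0.01 in the longest eighth of the genes, each with 1751 genes. In the shortest eighth, 23 genes were called higher and 10 lower, and in the longest 17 and 17.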

How the data were processed

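Poly(A) RNA of KHM-5M cells was sequenced by the authors in single-end reads of 50 bases on a BGIseq500, in 2 control, 2 SS and 2 SS+NAC libraries. The authors filtered reads with SOAPnuke, mapped them with HISAT2 2.0.4 and estimated levels with RSEM 1.2.12, and Bowtie2 2.2.5 is also named in the submitters' processing notes. The genome build is not given in the sources used here. The deposited table of 17687 genes holds expected counts, which RSEM divides among genes that share reads. It also holds FPKM values made by the authors, used here only to derive effective lengths from counts and FPKM. TPM values made by the authors with RSEM were used here for levels per length. The deposited log2 fold changes, p-values and q-values of the authors' own comparisons (9 columns) and 9 columns of group means were not used.

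Expected counts were rounded, filtered with filterByExpr of edgeR 4.0.16 (R 4.3.3) and scaled with TMM, with factors between 0.92 and 1.06. All 6 libraries were fitted together with the quasi-likelihood test, and p-values were adjusted over 14005 genes by the Benjamini-Hochberg method. The biological coefficient of variation was 6.74%. For 100 counts the sampling error is 10%. SE is the standard error of a log2 fold change. Where each library of a group had 0 counts, the fold is a bound computed with 3 counts per library. The test was checked on simulated data of this comparison with 200 changed genes. It called 175 genes, 11 of them false. It recovered 64.2% of 1.5-fold, 88.1% of 2-fold and 93.9% of 3-fold changes. The simulation used the same coefficient of variation for all genes and groups, so a spread that differs between genes or groups was not covered. Genes were named by size among called genes with at least 10 CPM in a group and non-overlapping libraries (12 each way), by size at 1 to 10 CPM (3 each way), by p within 33 gene lists (up to 4 called members, or 1 where none was called), and other list members, genes of a named family and genes overlapping a named one were added after their values were seen. A few genes that met these rules are not reported here. Members and lists were chosen with earlier results of these data known. Coordinates are from GENCODE release 29 (GRCh38), which held 280 of the 282 called genes, and promoters from RefSeq. DESeq2 1.42.0 served for alternatives. Tables and figures were made with Python 3.11.15, pandas 2.3.3, numpy 2.4.6 and matplotlib 3.10.9.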

Additional observations from a re-analysis of the deposited data

How the results depend on the processing

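The 282 called genes became 284 with DESeq2 size factors, 277 with upper-quartile factors, 310 with at least 10 counts in each library, 321 with the DESeq2 Wald test, 282 with a length offset (256 of them shared) and 259 after thinning to the smallest total. Bonferroni adjustment left 40 (32 higher, 8 lower, 28 changed at least 2-fold). Leaving out each library gave 98 to 1086 called genes, 75 to 559 higher, 20 to 527 lower and 49 to 171 changed at least 2-fold. With no filter, 229 genes were called, 60 of them lower. With the 4 compared libraries only, 206 genes were called (158 higher, 48 lower), and 200 of these were among the 282. Equal replicate numbers do not pair the samples by the labels, and the deviations of equal numbers from their group means correlated at -0.105 between control and SS+NAC. A replicate block left 211 genes (162 higher, 49 lower), 205 of them among the 282, and with a length offset as well 51 were lower. Crossed pairing, added after seeing the data, called 1475 (760 higher, 715 lower, 114 at least 2-fold). Alternatives were followed gene by gene for 81 genes, 69 of them called, which had been named by size or by p. No gene among these changed direction under any alternative in which it was tested. Genes added after their values were seen were not among them. Of 69 named called genes, 23 were no longer called without control replicate 1, 21 without control replicate 2, 5 without SS+NAC replicate 2, 0 without SS+NAC replicate 1, 4 without either SS library, 42 under Bonferroni adjustment and 0 to 6 under each other alternative. The causes were not tested. How small a change could be detected at each level was not tested.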

Other observations

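Among the 190 genes higher in SS+NAC, 115 were in none of the lists. Some of these, chosen after their values were seen, encode secreted or surface proteins. GREM1, a BMP antagonist, rose from a mean of 394 CPM in control to 789 CPM in SS+NAC. Its SS+NAC libraries lay apart, at 603 and 975 CPM, against 416 and 371 CPM in control. WNT5A, a WNT ligand, rose by 0.87 and the tight junction gene CLDN1 by 0.98. Among the 92 lower genes, the transcription factors SOX9 and NR2F2 fell by 0.58 and 0.75, the TGF-beta receptor gene TGFBR2 by 0.39, the ubiquitin ligase gene SMURF2 by 0.58 and the growth factor gene FGF5 by 0.71. The RNase gene ZC3H12A, which degrades cytokine mRNAs, rose by 0.86, and TSC22D3, a glucocorticoid-induced gene, by 1.28. All of these passed edgeR's quasi-likelihood test at an adjusted p of at most 0.05, and for each both SS+NAC libraries lay on one side of both control libraries.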
